A study of Mus musculus with 6 samples.

Results

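The genes described here are the receptor subunits, kinases, transcription factor and feedback inhibitors through which ciliary neurotrophic factor (CNTF) and leukemia inhibitory factor (LIF) act on a cell. They were chosen by name as a pathway, with earlier results of these data known, and there were 9 of them among the 43346 mouse genes in the tables: *Cntfr*, *Lifr*, *Il6st* and *Osmr* (receptor subunits), *Jak1* and *Jak2* (kinases), *Stat3* (transcription factor), and *Socs2* and *Socs3* (inhibitors). All 9 had enough counts to be tested. RNA came from cultured mouse retinal ganglion cells (RGCs), the neurons whose axons form the optic nerve. They were from C57BL/6 mice of both sexes and were purified by immunopanning on CD90.1 (encoded by *Thy1*). The control group received a control AAV encoding EGFP, the Sox11 group an AAV encoding Sox11 and EGFP, and the Sox11K91A group an AAV encoding EGFP and a Sox11 in which lysine 91, a site of SUMO attachment, was changed to alanine. Each group had 2 replicates, so there were 6 libraries. The sources do not say which promoter drove the transgene, or whether replicates came from separate purifications. The authors describe 3 RNA samples in duplicates, without saying at which step the duplicates were made. The p-values below thus measure the spread between these libraries only. For the age of the cells the labels give both embryonic day 18 and postnatal day 2. The authors name embryonic day 18 for the RNA-seq, while their general culture methods describe pups of postnatal day 2. All 3 groups, the control included, grew in medium with CNTF at 10 ng/ml, BDNF at 50 ng/ml and forskolin (5 mM as written in the labels), received 1.5 μl of virus 4 h after plating, and were lysed 72 h after plating. The added CNTF is a ligand of the pathway studied here, and no group was grown without it.

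CNTF binds its own subunit, the product of *Cntfr*, which is anchored to the membrane and has no signalling domain. *Lifr* and *Il6st* encode the subunits that it recruits. These hold JAK kinases, which phosphorylate STAT3, and STAT3 then enters the nucleus and induces genes that include *Socs3*, whose product blocks the same receptors. In RGCs this pathway is known for the survival and axon growth that CNTF elicits, and loss of *Socs3* is known to raise axon regrowth after optic nerve injury.

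Promoter stretches are shown for *Jak2* and *Socs3*, the genes that passed the test below, one higher and one lower, and that had a promoter entry in RefSeq on GRCm38.p6. Such entries were found for 8 of the 9 members, all but *Socs2*, with 14 windows among them. The windows searched ran from 250 bases before to 50 after each start site, and the capitals mark a match to TTCNNNGAA, the palindrome that STAT dimers bind.
Socs3, chr11:117969502-117969530, minus strand: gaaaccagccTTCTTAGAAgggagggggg
Jak2, chr19:29251553-29251802, plus strand: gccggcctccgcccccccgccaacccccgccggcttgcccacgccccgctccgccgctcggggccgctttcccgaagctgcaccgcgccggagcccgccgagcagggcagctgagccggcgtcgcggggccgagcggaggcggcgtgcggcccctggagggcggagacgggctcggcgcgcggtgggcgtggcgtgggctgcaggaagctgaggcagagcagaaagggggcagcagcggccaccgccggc
The *Socs3* match begins 154 bases before the start site. Of the 8 members with an entry, *Socs3* alone held a STAT match, and 9.6% of the 27025 genes with an entry held at least 1. A Sox motif, ACAAAG or ACAATG on either strand, was found in the windows of *Socs3* (24 bases before the start), *Stat3* (158 bases before) and *Lifr* (215 bases before), against 31.7% of all genes. The *Jak2* stretch, the 250 bases before the start, was 80.8% G and C and held neither motif. The start sites used for *Lifr* and *Socs3* lie inside the gene spans given below, so their stretches are not upstream of the whole gene. All of these are matches of letters, and no binding was measured here.

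The libraries held between 27521982 and 37061718 expected counts. Sox11 was at 234 and 332 CPM (counts scaled to a library size common to all libraries) in the control libraries, at 9178 and 14591 CPM in the Sox11 libraries, and at 11971 and 7026 CPM in the Sox11K91A libraries. The counts do not separate viral from cellular Sox11. *Xist*, an RNA made from the inactive X chromosome, was lower in control replicate 2 (95.9 CPM) and Sox11 replicate 2 (254 CPM) than in the other 4 libraries (400 to 526 CPM), and the same libraries stood apart on the principal component that held 18.2% of the variance. Results that rest on them are given with and without them where the call or the size changes. Without both, no spread is left within control or Sox11, and the fit takes it from the Sox11K91A pair alone. That pair differed least (median absolute log2 difference 0.16, against 0.34 in control and 0.26 in Sox11). A pass in that fit therefore does not show that a result holds without these libraries. All 8 RGC markers were detected, and their summed level was 10000 and 9280 CPM in control, 6280 and 3730 CPM in Sox11, and 5000 and 6570 CPM in Sox11K91A. Most of this sum was *Nefl*, which was at 7090 and 6340 CPM in control and between 2190 and 4330 CPM in the transduced libraries. The markers did not move together. *Thy1*, *Slc17a6* and *Nefl* were called lower with Sox11 and *Slc17a6* with Sox11K91A, while the other 5, *Rbpms*, *Pou4f1*, *Pou4f2*, *Pou4f3* and *Sncg*, did not pass with either, and *Pou4f3* had a log2 fold change of 0.28 and 0.40. *Gfap*, an astrocyte marker, was at 0 counts in every library. The summed astrocyte, microglia, endothelial, pericyte and fibroblast, and photoreceptor markers stayed at or below 15 CPM each. The 6 Mueller glia markers summed to between 663 and 816 CPM and the 6 amacrine markers to between 37.5 and 232 CPM. Within the Mueller glia markers *Glul* was called higher with both viruses (105 and 97.2 CPM in control against 267 to 310 CPM), and *Dkk3* was at 498 and 371 CPM in control against 192 to 346 CPM. *Vim* was at 123 to 202 CPM over all libraries. The rest were near absent, with *Rlbp1* at 0.182 to 3.74 CPM and *Abca8a* and *Car14* at or below 0.513 CPM. *Rlbp1* was not called (log2 fold change -2.51 and -2.70). The low-*Xist* libraries, control replicate 2 and Sox11 replicate 2, also had the lowest *Gad1* (2.83 and 2.23 CPM against 17.2 to 36.2 CPM). The same held for *Slc32a1* (1.22 and 2.59 against 7.68 to 14.6 CPM), *Tfap2a* and *Tfap2b*, but not for *Gad2* and *Slc6a9*. Blocking on these libraries or leaving them out thus also bears on this difference, whose cause was not tested. No Sox11K91A library had low *Xist*, so the size of the block comes from control and Sox11 alone. Sox11 replicate 2 was also the library with the most Sox11, at 14591 CPM. The 6 endothelial markers, of which 2 averaged at least 1 CPM, summed to 4.87 and 3.76 CPM in control and to between 6.24 and 11.8 CPM in the transduced groups. In RNA from a mixed well, fewer cells of a type and less RNA per cell cannot be told apart.

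*Jak2* and *Socs2* rose and *Socs3* fell in the RGCs that received Sox11, and the other 6 genes did not pass the test. Of the 9 genes, 2 were called higher and 1 lower, 33.3% of the list, where 20.1% of the 15747 genes tested were called (9.96% higher and 10.2% lower). With Sox11K91A, *Jak2* and *Socs2* were again called higher, 22.2% of the list, beside 10.6% of all genes (5.81% higher and 4.81% lower), and *Socs3* did not pass. Both comparisons use the same control libraries. A gene was called at an adjusted p under 0.05 and a fold change above 1.2 in limma-voom. The median log2 fold change of the 9 genes was -0.01 for Sox11 and 0.06 for Sox11K91A, and that of all genes was 0.01 and 0.02.

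**Figure D1:**
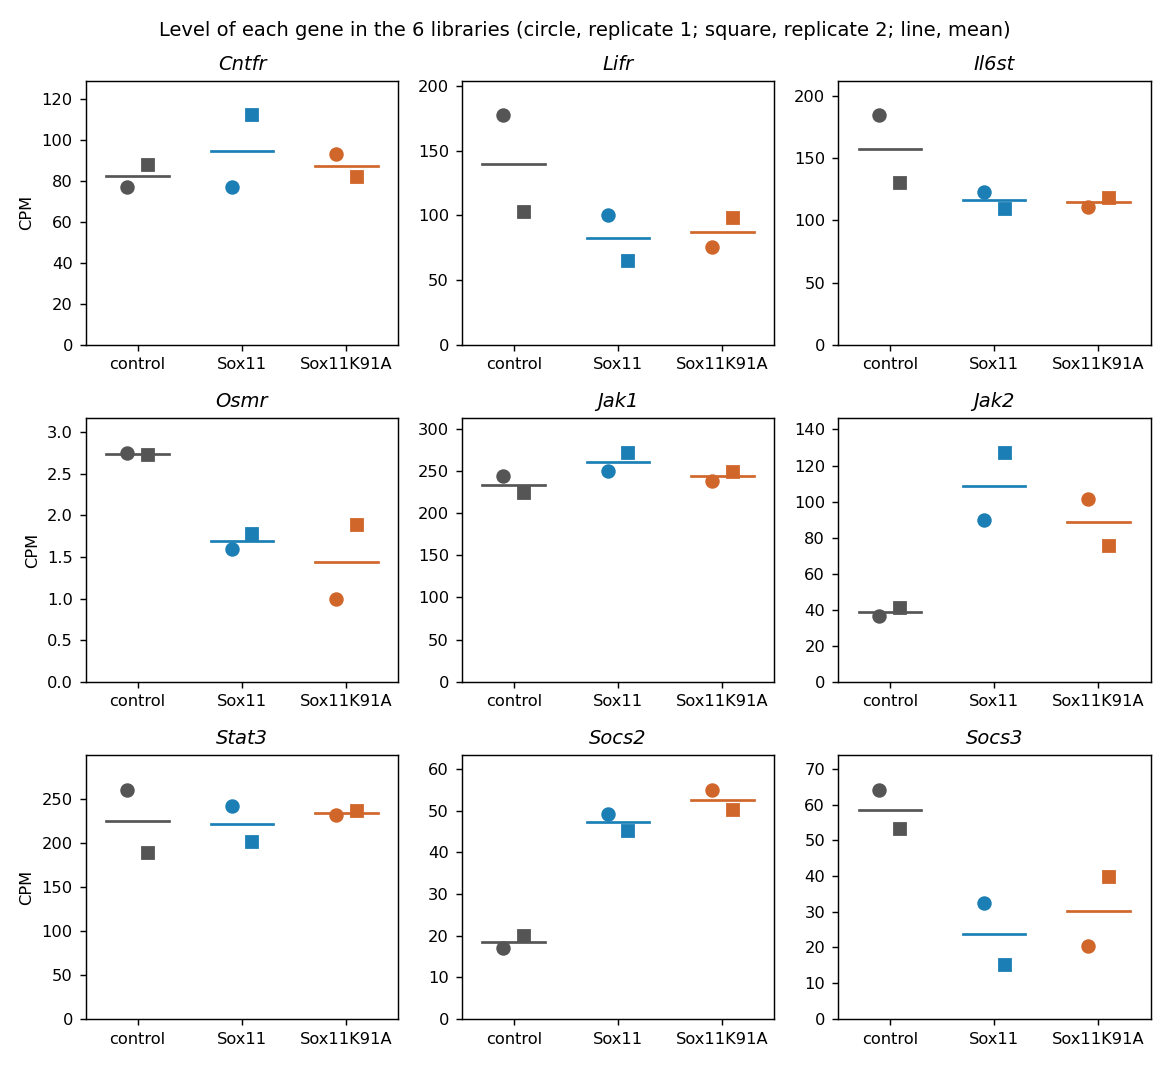
CPM of each of the 9 genes (vertical axis, from 0) in the control, Sox11 and Sox11K91A groups, with a circle for replicate 1, a square for replicate 2 and a line at the group mean. *Jak2* and *Socs2* lay above control in all 4 transduced libraries, *Socs3* lay below it, and *Stat3* overlapped between the groups.

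Among the receptor genes, *Cntfr*, which encodes the CNTF-binding subunit (ENSMUSG00000028444, chr4:41657498-41697089 on GRCm38, minus strand), was at 77.2 and 87.5 CPM in control, 77.0 and 112 CPM in Sox11, and 92.9 and 81.7 CPM in Sox11K91A. The groups overlapped. The log2 fold change was 0.18 for Sox11 (95% interval -0.30 to 0.66, adjusted p = 0.563) and 0.08 for Sox11K91A (-0.40 to 0.56, adjusted p = 0.823).

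*Lifr*, the subunit that CNTF and LIF share (ENSMUSG00000054263, chr15:7090614-7197489, plus strand), was at 177 and 102 CPM in control, 100 and 64.4 CPM in Sox11, and 75.7 and 98.0 CPM in Sox11K91A. Every transduced library lay below both controls in CPM, with a gap to control replicate 2 that was small beside the spread of the controls. In TPM, the length-scaled level of RSEM, the groups overlapped. Control replicate 2 was at 20.2 TPM, under Sox11 replicate 1 (22.8) and Sox11K91A replicate 2 (22.25). With limma-trend on log2(TPM + 1) the adjusted p was 0.280 for Sox11 and 0.379 for Sox11K91A. The log2 fold change was -0.75 (SE 0.32) for Sox11 and -0.65 (SE 0.32) for Sox11K91A, and neither passed (adjusted p = 0.131 and 0.216). The low-*Xist* libraries bear on this value. Among the libraries with low *Xist*, *Lifr* was at 102 CPM with the control virus and 64.4 CPM with Sox11, and among the others it was at 177 CPM with control, 100 CPM with Sox11, and 75.7 and 98.0 CPM with Sox11K91A. With low *Xist* as a block in the fit the adjusted p was 0.0204 for Sox11 and 0.0190 for Sox11K91A. Without the low-*Xist* libraries the log2 fold change was -0.82 for Sox11 and -1.04 for Sox11K91A. Without control replicate 1 it was -0.35 and -0.25.

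*Il6st* encodes the signalling subunit that CNTF, LIF and interleukin 6 all use (ENSMUSG00000021756, chr13:112464070-112510086, plus strand). It was at 185 and 130 CPM in control, 123 and 109 CPM in Sox11, and 111 and 118 CPM in Sox11K91A. The 4 transduced libraries lay below both controls. The log2 fold change was -0.42 (SE 0.19, adjusted p = 0.155) for Sox11 and -0.44 (SE 0.19, adjusted p = 0.174) for Sox11K91A. For Sox11 it was -0.16 without control replicate 1 and -0.67 without control replicate 2. Without the 2 low-*Xist* libraries it was -0.58 for Sox11 and -0.68 for Sox11K91A. Blocking on low *Xist* gave an adjusted p of 0.0631 for Sox11 and 0.0422 for Sox11K91A.

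*Osmr*, which pairs with the *Il6st* product to bind oncostatin M (ENSMUSG00000022146, chr15:6813577-6874969, minus strand), was the least abundant of the 9 genes. It had 77 and 105 counts in control, 44 and 59 in Sox11, and 32 and 55 in Sox11K91A, or 2.76 and 2.72, 1.60 and 1.78, and 0.99 and 1.89 CPM. Both transduced groups lay below control. The log2 fold changes of -0.69 (SE 0.38) and -1.01 (SE 0.40) did not pass (adjusted p = 0.231 and 0.140). The summed RGC markers, through *Nefl*, *Thy1* and *Slc17a6*, were also lower in all 4 transduced libraries than in control. So were *Lifr*, *Il6st* and *Osmr* in CPM, and the part of the markers in these values was not tested. Groups that do not overlap in this direction were found for 30.6% of all genes with Sox11 and 30.7% with Sox11K91A.

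The 2 kinases differed from each other. *Jak1*, the main kinase of the *Il6st* subunit (ENSMUSG00000028530, chr4:101152367-101265282, minus strand), was at 244 and 223 CPM in control, 250 and 272 CPM in Sox11, and 238 and 249 CPM in Sox11K91A. Both Sox11 libraries lay above both controls, as they did for 30.9% of all genes. The changes were small and did not pass, with log2 fold changes of 0.16 (95% interval -0.17 to 0.48, adjusted p = 0.435) and 0.06 (-0.26 to 0.38, adjusted p = 0.808). Exons of *Jak1* overlap those of *Raver2* on the other strand, and the sources do not say whether counting used strand.

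*Jak2*, a kinase that these receptors share with those of growth hormone, erythropoietin and leptin (ENSMUSG00000024789, chr19:29251828-29313080, plus strand), was at 36.6 and 40.8 CPM in control. It was at 89.5 and 127 CPM in Sox11 and at 102 and 75.6 CPM in Sox11K91A. All 4 transduced libraries exceeded the higher control, and the 2 transduced groups overlapped. Both Sox11K91A libraries exceeded both controls for 31.2% of all genes. *Jak2* rose 2.75-fold with Sox11 (log2 fold change 1.46, SE 0.23, adjusted p = 0.0132) and 2.26-fold with Sox11K91A (1.18, SE 0.22, adjusted p = 0.0279). Without Sox11 replicate 2 the Sox11 value no longer passed (adjusted p = 0.0848), and without that library no gene of the table was called in this comparison. The Sox11K91A value did not pass without control replicate 1 (0.0542), control replicate 2 (0.0734), Sox11K91A replicate 1 (0.250) or Sox11K91A replicate 2 (0.0526), although the log2 fold change stayed between 0.97 and 1.39. Without both low-*Xist* libraries the log2 fold change was 1.30 for Sox11 and 1.27 for Sox11K91A.

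Per transcript length the kinases can be set side by side. The ratio of *Jak2* to *Jak1* in TPM (a transcript level that RSEM divides by length and scales to the same sum in each library) was 0.145 and 0.176 in control, 0.347 and 0.456 in Sox11, and 0.415 and 0.291 in Sox11K91A. *Jak1* thus remained the more abundant kinase transcript in every library, and every transduced library had a higher ratio than both controls.

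*Stat3*, the transcription factor that the receptors activate (ENSMUSG00000004040, chr11:100885098-100939540, minus strand), was at 260 and 188 CPM in control, 241 and 200 CPM in Sox11, and 232 and 236 CPM in Sox11K91A. Both transduced groups lay inside the range of the control libraries. The log2 fold change was -0.01 for Sox11 (95% interval -0.47 to 0.44, adjusted p = 0.971) and 0.08 for Sox11K91A (-0.38 to 0.53, adjusted p = 0.825). Exons of *Stat3* overlap those of *Stat5a* on the other strand. RNA levels do not show how much STAT3 was phosphorylated.

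The 2 inhibitors moved in opposite directions. *Socs2*, whose product restrains growth hormone receptor signalling (ENSMUSG00000020027, chr10:95385362-95417180, minus strand), was at 16.9 and 19.9 CPM in control, 49.2 and 45.2 CPM in Sox11, and 55.0 and 50.2 CPM in Sox11K91A. The replicates lay close together, and both transduced groups stood clear of control. *Socs2* rose 2.55-fold with Sox11 (log2 fold change 1.35, SE 0.16, adjusted p = 0.0112) and 2.84-fold with Sox11K91A (1.51, SE 0.16, adjusted p = 0.0118). The Sox11 value did not pass without Sox11 replicate 2 (adjusted p = 0.0685), nor did the Sox11K91A value without control replicate 2 (0.0532) or Sox11K91A replicate 1 (0.0924). The log2 fold changes in these fits were 1.42, 1.64 and 1.44. Without both low-*Xist* libraries the log2 fold change for Sox11 was 1.54.

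*Socs3*, the inhibitor that STAT3 induces and that acts on the *Il6st* subunit (ENSMUSG00000053113, chr11:117966079-117970047, minus strand), was at 64.2 and 53.1 CPM in control, 32.5 and 15.1 CPM in Sox11, and 20.4 and 39.8 CPM in Sox11K91A. The transduced libraries all lay below control, with a spread of more than 2-fold within the Sox11 group. *Socs3* was 2.69-fold lower with Sox11 (log2 fold change -1.43, SE 0.41), at an adjusted p of 0.0499 that stood at the threshold. It was 2.06-fold lower with Sox11K91A (-1.04, SE 0.39), which did not pass (adjusted p = 0.128). The call for Sox11 was lost under 9 of 18 other settings, among them edgeR's quasi-likelihood test (adjusted p = 0.0770), and it was kept with DESeq2 (0.0115). Without control replicate 1, control replicate 2 or Sox11 replicate 2 the adjusted p was 0.109, 0.0906 or 0.289, with log2 fold changes of -1.30, -1.58 and -0.84. Without both low-*Xist* libraries it was 0.150 (-0.98), and with low *Xist* as a block the call was kept (0.0292).

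The ratio of *Socs2* to *Socs3* in TPM was 0.551 and 0.480 in the control libraries, 2.39 and 4.45 in the Sox11 libraries, and 3.82 and 1.82 in the Sox11K91A libraries. In control the *Socs3* transcript was the more abundant, and in all 4 transduced libraries *Socs2* was. The ratio was formed after the levels of both genes were seen, and no test of it was made.

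**Figure D2:**
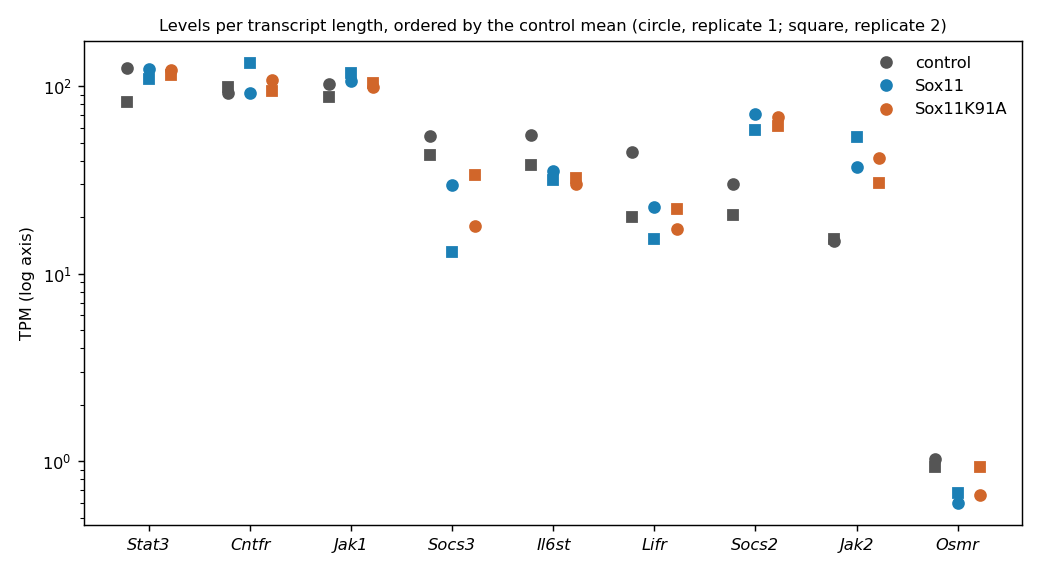
TPM of the 9 genes (vertical log axis) in each library, ordered by the control mean, with a circle for replicate 1 and a square for replicate 2. *Stat3*, *Cntfr* and *Jak1* lead in every group, *Jak2* and *Socs2* sit higher in the transduced groups, *Socs3* sits lower, and *Osmr* is near 1 TPM.

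Read per length, the genes fell into 3 levels. *Stat3* (103 ± 29.9 TPM, SD, n = 2), *Cntfr* (95.2 ± 5.14) and *Jak1* (95.0 ± 11.3) led in control and did not differ from one another beyond their spread. Below them came *Socs3* (48.5 ± 8.23), *Il6st* (38.0 and 54.9 TPM in the 2 libraries), *Lifr* (32.3 ± 17.1), *Socs2* (25.2 ± 6.70) and *Jak2* (15.1 ± 0.24). In this middle range each neighbour lay within the spread of the next except *Jak2*, whose highest library (15.3 TPM) was under the lowest of *Socs2* (20.5 TPM). *Osmr* was at 0.98 ± 0.07 TPM. The leading 3 were the same in the Sox11 group, at 116 ± 10.6 TPM for *Stat3*, 112 ± 28.2 for *Cntfr* and 112 ± 7.16 for *Jak1*. After them came *Socs2* (64.6 ± 9.20 TPM) and *Jak2* (45.2 ± 11.5 TPM), ahead of *Il6st* (33.5 ± 2.66), *Socs3* (21.4 ± 11.8) and *Lifr* (19.1 ± 5.27). The Sox11K91A group kept this order of the middle genes, from *Socs2* (65.1 ± 5.30 TPM) and *Jak2* (35.9 ± 7.62 TPM) to *Il6st* (31.3 ± 1.70), *Socs3* (25.9 ± 11.1) and *Lifr* (19.8 ± 3.46), although *Jak2*, *Il6st* and *Socs3* overlapped there. In the Sox11 group the libraries of *Socs2*, *Jak2* and *Il6st* did not overlap one another, and those of *Socs3* and *Lifr* did. *Cntfr* thus exceeded *Lifr* in every library, and the ratio of *Lifr* to *Cntfr* was 0.484 and 0.204 in the controls.

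**Figure D3:**
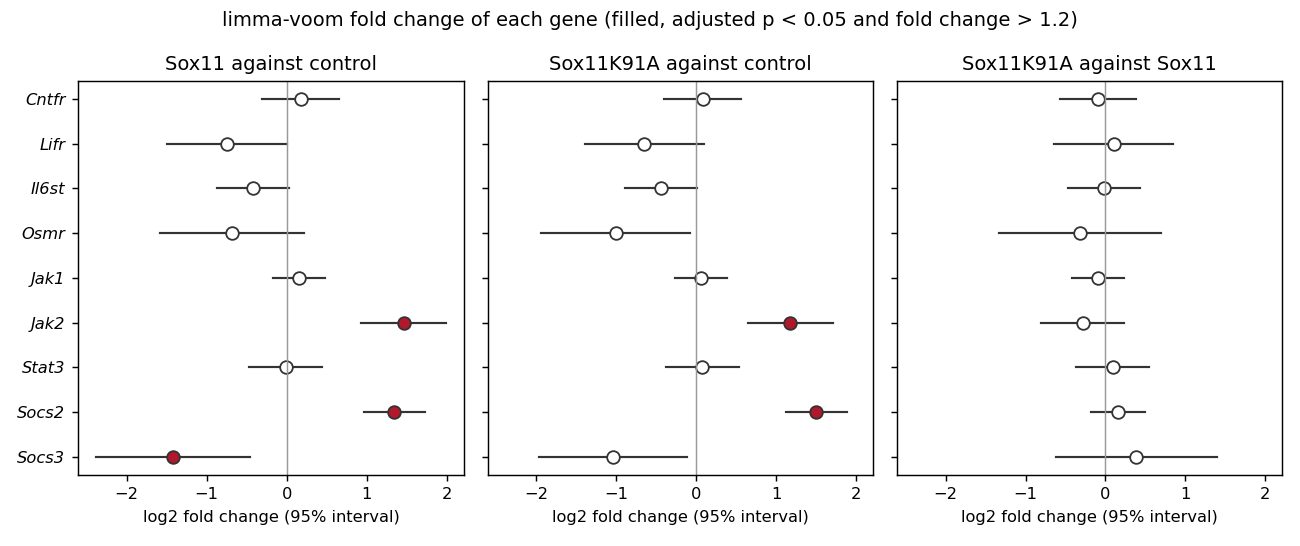
log2 fold change of each gene with its 95% interval (horizontal axis) in the 3 comparisons, filled where limma-voom gave an adjusted p under 0.05 and a fold change above 1.2. *Jak2* and *Socs2* are filled in both comparisons with control and *Socs3* in that of Sox11, while none is filled between Sox11K91A and Sox11.

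Sox11K91A was compared with Sox11 directly to ask whether loss of the SUMO site changed these genes. None of the 9 was called, and neither was any of the 15747 genes in limma-voom (0%), where 108 genes and none of the 9 had an unadjusted p under 0.05. edgeR also called 0 genes, with 88 under that unadjusted p, and DESeq2 called 2, none of them among the 9. For *Jak2* the log2 difference was -0.28 (95% interval -0.80 to 0.24), for *Socs2* it was 0.16 (-0.18 to 0.50), for *Socs3* 0.38 (-0.62 to 1.39), for *Lifr* 0.10 (-0.64 to 0.84) and for *Stat3* 0.09 (-0.36 to 0.54), all with an adjusted p of 0.9999. *Socs2*, higher with Sox11K91A, and *Jak1*, lower, had groups that did not overlap, as did 13.3% of all genes in the one direction and 13.4% in the other.

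The 4 transduced libraries were also set in the order of their Sox11 level. From the highest Sox11 to the lowest (Sox11 replicate 2, Sox11K91A replicate 1, Sox11 replicate 1, Sox11K91A replicate 2), *Jak2* was at 127, 102, 89.5 and 75.6 CPM, and *Socs3* at 15.1, 20.4, 32.5 and 39.8 CPM. *Jak2* fell along this order and *Socs3* rose along it without exception, and none of the other 7 genes did either. The order of these 4 libraries was examined after their values were seen. Of the 15746 tested genes other than Sox11, 12.4% fell in the same order and 13.9% rose, so 1 of 9 in each direction is no more than is seen over all genes. *Thy1*, the surface protein by which the cells were purified, also rose along it, at 46.3, 154, 259 and 312 CPM. So did *Rbpms*, *Sncg* and *Nefl*, at 194 to 232, 481 to 806 and 2190 to 4330 CPM. The other RGC markers did not rise at every step. *Pou4f2* was at 119, 79.8, 85.9 and 89.8 CPM, and *Pou4f3* at 64.8, 86.0, 81.6 and 72.3 CPM. *Pou4f1* was at 321, 332, 386 and 385 CPM, and *Slc17a6* at 316, 314, 356 and 350 CPM. *Socs2* did not follow, at 45.2, 55.0, 49.2 and 50.2 CPM.

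**Figure D4:**
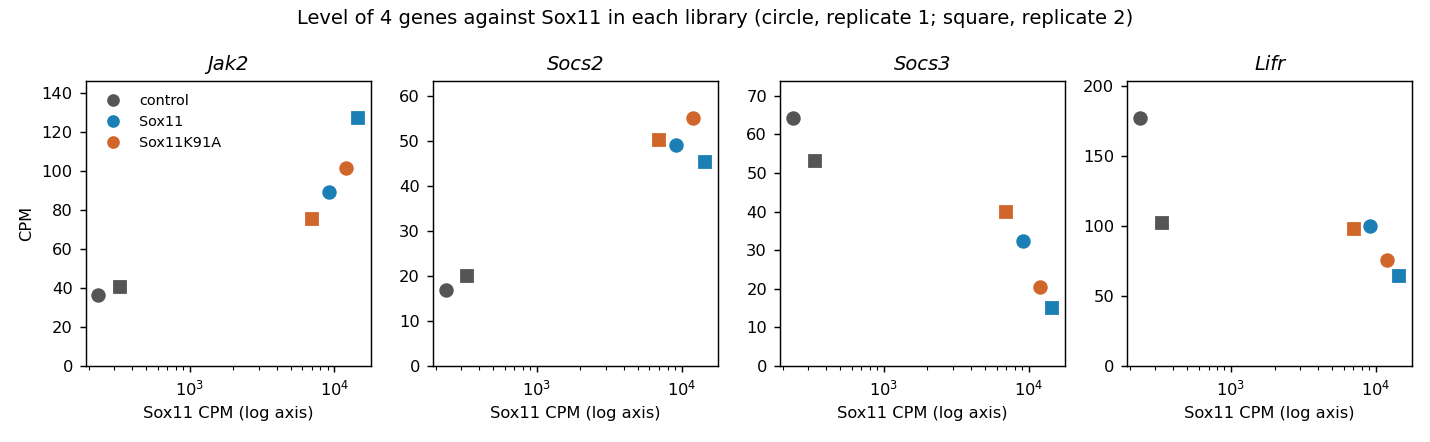
CPM of *Jak2*, *Socs2*, *Socs3* and *Lifr* (vertical axes, from 0) against the CPM of Sox11 (horizontal log axis) in each of the 6 libraries, coloured by group, with a circle for replicate 1 and a square for replicate 2. Within the 4 transduced libraries *Jak2* is highest and *Socs3* lowest where Sox11 is highest (14591 CPM), while *Socs2* stays between 45.2 and 55.0 CPM.

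The rest of the pathway was read from a list of 61 further genes, of which 51 had enough counts to be tested. With Sox11, 5 were called higher and 5 lower (19.6%, beside 20.1% of all genes), and with Sox11K91A 2 were higher and 4 lower (11.8%, beside 10.6%). Both shares lie near those of all genes. The median log2 fold change was -0.27 with Sox11 and -0.29 with Sox11K91A, against 0.01 and 0.02 over all genes. Called genes came to 0 with Sox11 when Sox11 replicate 2 was left out and to 6 when either Sox11K91A replicate was, and with Sox11K91A to 0 without control replicate 2 or Sox11K91A replicate 1 and to 1 without Sox11K91A replicate 2. They came to 11 and 20 without both low-*Xist* libraries.

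Among 8 ligands, of which 5 were tested, *Lif* was the one called. That was 20% with each virus, where 20.1% and 10.6% of all genes were called. It had 10 and 12 counts in control, 48 and 54 in Sox11, and 63 and 49 in Sox11K91A, or 0.358 and 0.311 CPM against 1.63 to 1.96 CPM in the transduced libraries. *Lif* rose 4.91-fold with Sox11 (log2 fold change 2.29, SE 0.48, adjusted p = 0.0235) and 5.29-fold with Sox11K91A (2.40, SE 0.48, adjusted p = 0.0303), at a level that stayed under 2 CPM. Without both low-*Xist* libraries the Sox11 value did not pass (2.24, adjusted p = 0.0747) and the Sox11K91A value did (2.29, 0.0427). *Cntf* itself, whose protein was in the medium, was low in all groups, between 0.51 and 1.03 CPM. *Clcf1*, another ligand of the CNTF receptor, gave adjusted p-values of 0.299 and 0.126. *Il6* had 0 counts in every library, *Osm* had 3 counts in Sox11 replicate 2 and 0 elsewhere, and *Il27* had at most 7 counts, so these were not tested.

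Of 6 other receptor genes, 4 were tested. The 2 without enough counts were *Il31ra*, with at most 10 counts in a library, and *Il27ra*, with at most 3.

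Of the 8 other kinases and STATs, 7 were tested and none was called in either comparison, where 20.1% and 10.6% of all genes were. In limma-voom 0 of the 7 had an unadjusted p under 0.05 for Sox11 and 2 for Sox11K91A. Of 14 other regulators, 13 were tested, and 3 rose and none fell with Sox11, or 23.1%. Of all genes, 9.96% were called higher and 20.1% in either direction. *Pias1* and *Pias2*, which encode SUMO ligases first described as inhibitors of activated STATs, rose 1.49-fold (log2 fold change 0.58, adjusted p = 0.0360) and 1.87-fold (0.90, adjusted p = 0.0197). *Socs6*, another member of the SOCS family, rose 1.65-fold (0.72, adjusted p = 0.0273). None of the 3 passed without both low-*Xist* libraries (adjusted p = 0.0774, 0.0538 and 0.0822). With Sox11K91A none of the 13 was called in limma-voom, beside 10.6% of all genes, although 4 had an unadjusted p under 0.05. That difference between the viruses is not one that the direct comparison called.

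The largest changes in the list were among 25 genes known to respond to STAT3, of which 22 were tested. With Sox11, 5 fell and none rose, and with Sox11K91A 4 fell and none rose. These were 22.7% and 18.2% of the 22. Of all genes, 10.2% and 4.81% were called lower, and 20.1% and 10.6% in either direction. The median log2 fold changes of the 22 were -0.67 and -0.77. *Gal*, a neuropeptide gene of the list, was at 31.1 and 59.1 CPM in control and between 70.1 and 107 CPM in the transduced libraries, without overlap, and did not pass (log2 fold change 1.05 and 0.87, adjusted p = 0.0592 and 0.124). *Atf3*, a stress-induced transcription factor, was at 29.9 and 38.5 CPM in control, 4.99 and 4.74 CPM in Sox11, and 3.13 and 6.89 CPM in Sox11K91A. It fell 7.03-fold with Sox11 (log2 fold change -2.81, SE 0.34, adjusted p = 0.0113) and 7.44-fold with Sox11K91A (-2.89, SE 0.35, adjusted p = 0.0140). *Cebpb*, a transcription factor of the acute phase response, was at 29.5 and 22.8 CPM in control and between 2.84 and 7.30 CPM in the transduced libraries. It fell 6.14-fold (-2.62, adjusted p = 0.0128) and 4.41-fold (-2.14, adjusted p = 0.0223).

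*Sprr1a*, known as a gene that injured neurons induce, was at 7.23 and 18.4 CPM in control and between 0.466 and 1.36 CPM in the transduced libraries, a fall of 11.0-fold (log2 fold change -3.46, SE 0.76, adjusted p = 0.0263) and 16.1-fold (-4.01, SE 0.84, adjusted p = 0.0335). *Vegfa*, an angiogenic factor, fell from 44.5 and 51.7 CPM to between 24.5 and 27.6 CPM, or 1.80-fold (-0.85, adjusted p = 0.0173) and 1.86-fold (-0.90, adjusted p = 0.0233). *Myc* fell 3.15-fold with Sox11 (-1.65, adjusted p = 0.0405), from 7.23 and 12.4 CPM to 4.33 and 2.29 CPM. Without both low-*Xist* libraries the log2 fold change of *Myc* with Sox11 shrank to -0.73. For Sox11 and Sox11K91A it was then -2.58 and -2.70 for *Atf3* and -2.19 and -2.34 for *Cebpb*. For *Sprr1a* it was -3.08 and -3.265, and for *Vegfa* -0.69 and -0.78. *Atf3*, *Sprr1a* and *Vegfa* are also induced by injury, stress or low oxygen without STAT3, and the summed RGC markers were lower in the same libraries. Their part in these falls was not tested.

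**Figure D5:**
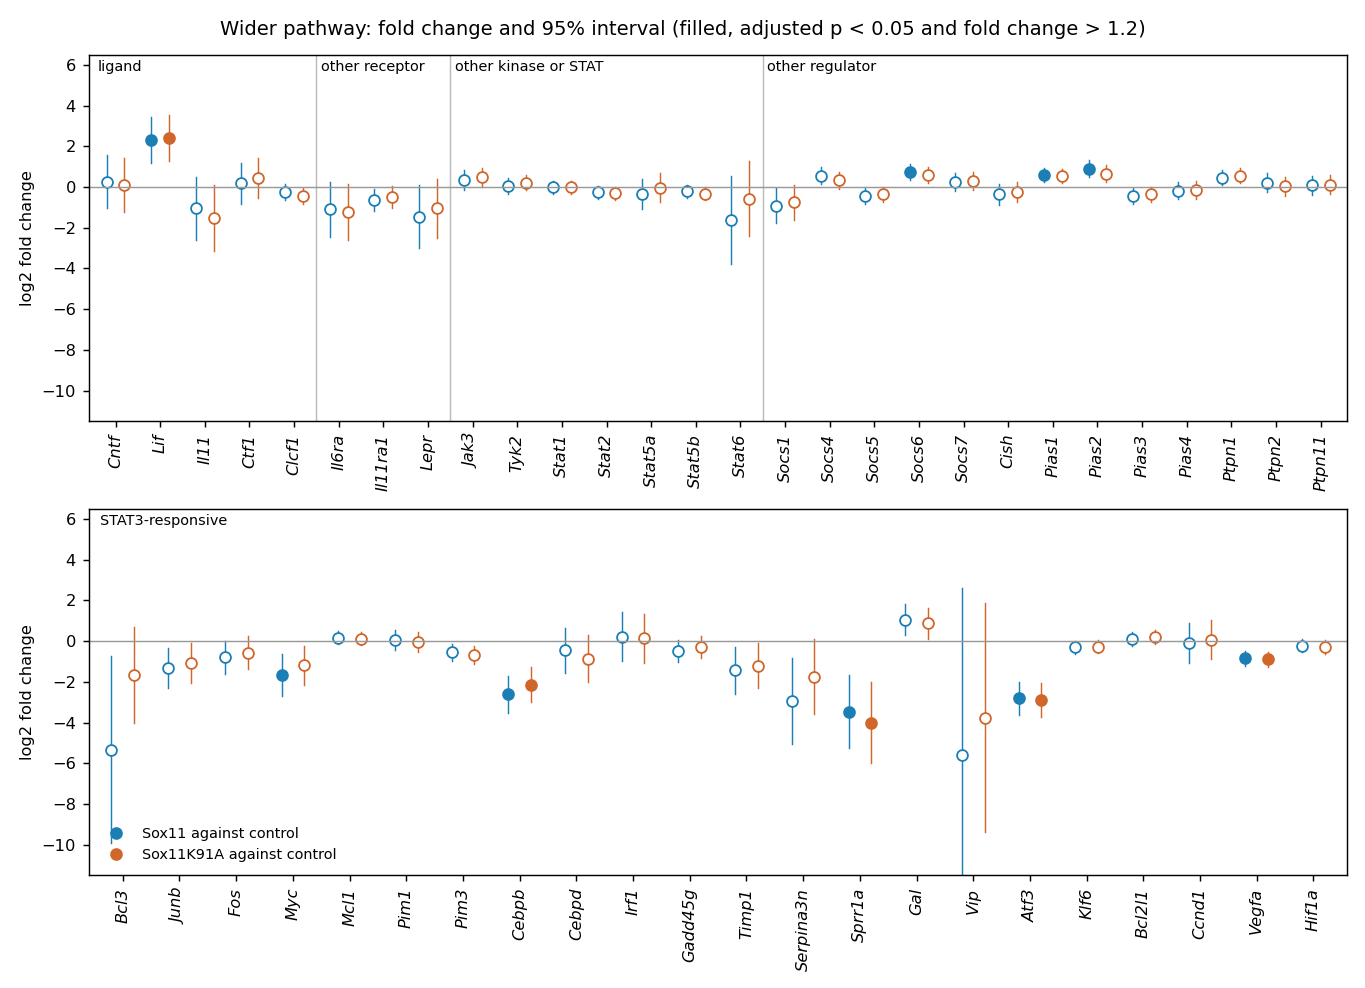
log2 fold change with its 95% interval (vertical axis) of 50 tested genes of the wider list, grouped by role, for Sox11 and Sox11K91A against control, filled where limma-voom gave an adjusted p under 0.05 and a fold change above 1.2. *Lif* is filled above 0, and *Cebpb*, *Sprr1a*, *Atf3* and *Vegfa* are filled below 0, for both viruses, while the interval of *Vip* for Sox11 runs past the lower edge.

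For 4 of the genes, those whose pattern over the 6 libraries was nearest were sought among 13377 genes of at least 1 CPM, by the root mean square difference of log2 CPM after centring each gene. Nearest to *Socs3* were *Tspan9* (0.073 on the log2 scale), *Cdh22* (0.079) and *Pcp4* (0.105), where *Socs3* itself spread by 0.732. *Lifr*, with a spread of 0.454, lay nearest to *Gpr37* (0.053), *Lrrc3b* (0.069) and *Slc7a14* (0.072). For *Stat3*, which spread by only 0.161, they were *Rnf123* (0.020), *Brd2* (0.032) and *Golgb1* (0.034), and for *Cntfr*, which spread by 0.187, *Atp6v0e* (0.037), *Pan3* (0.054) and *Galnt1* (0.058). All libraries enter each value, so a likeness can come from what the 6 libraries share.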

How the data were processed

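RNA-seq tables of 6 libraries were analysed, 2 each from RGCs with the control, Sox11 or Sox11K91A AAV. The authors aligned reads to mm10 with STAR and counted them with RSEM. They deposited, per gene, an expected count that was not normalized and a TPM, which RSEM scales to the same sum in each library. Tool versions, the annotation and whether strand was used are not given in the sources used here. Values were whole for 80.9% to 82.8% of expected counts above 0. The counts of 8 of the 9 genes were whole in all libraries, and those of *Socs2* in 4.

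Expected counts were rounded, filtered with filterByExpr (edgeR 4.0.16), scaled by TMM (factors 0.985 to 1.04) and tested with limma-voom (limma 3.58.1, R 4.3.3), all 6 libraries in 1 fit without covariates. This kept 15747 genes, over which p-values, two-sided, were Benjamini-Hochberg adjusted. CPM use TMM-scaled library sizes. SD are over 2 replicates. Positions and symbols are from GENCODE M21 (GRCm38), which named 98.0% of the genes. The script was tested on simulated data. Figures were made with Python 3.11.15 and matplotlib 3.10.9.

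The genes and lists were chosen with earlier results of these data known. Named are the 9 genes, the genes of the wider list called against control (except 1, which is not reported here), the ligands and receptors with too few counts to test, the 3 nearest patterns of *Cntfr*, *Lifr*, *Stat3* and *Socs3*, and *Cntf*, *Clcf1*, *Jak1*'s and *Stat3*'s overlapping neighbours, *Gal*, and the markers, which were named after their values were seen. Replicates differed by more than sampling noise (chi-square per degree of freedom 20.7 to 96.5). Alternatives were edgeR's quasi-likelihood test, DESeq2 1.42.0, quality weights, limma-trend on log2(TPM + 1), other scaling and filters, a fit of 2 groups, replicate and low-*Xist* blocks, other fold thresholds, and leaving out libraries. A block with exchanged numbers was added after seeing the data.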

Additional observations from a re-analysis of the deposited data

How the results depend on the processing

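Of 486 log2 fold changes of the 9 genes under alternatives, 435 kept their direction and their side of the threshold, 17 lost the call, 7 gained it and 27 changed sign, all 27 among values that were not called. In Sox11 against control 3171 genes were called, 979 with quality weights, 1598 with 2 groups in the fit and between 0 (without Sox11 replicate 2) and 3753 with libraries left out. Members called were 3, and between 0 and 3 with libraries left out. The wider list gave 10, or 4 with quality weights, 6 with log2(TPM + 1), 6 with 2 groups, 18 with the low-*Xist* block and between 0 and 12 with libraries left out. In Sox11K91A against control 1672 genes were called, 3144 with DESeq2, 936 with log2(TPM + 1), 2894 with the low-*Xist* block and between 0 (without control replicate 2) and 4108 (without both low-*Xist* libraries) with libraries left out. Members called were 2, with 4 under the low-*Xist* block and between 0 and 4 with libraries left out, and the wider list gave 6, with 12 under DESeq2, 15 under the low-*Xist* block and between 0 and 20 with libraries left out. Between Sox11K91A and Sox11, DESeq2 called 2 genes. The cause was not tested. Deviations of same-numbered libraries correlated at 0.259 (control and Sox11), -0.045 (control and Sox11K91A) and -0.282 (Sox11 and Sox11K91A). With 2 libraries per group, these values cannot show whether the replicate numbers pair the libraries. The fit with the replicate block called 2679, 1402 and 0 genes in the 3 comparisons, and *Socs3* with Sox11 had an adjusted p of 0.0544 in it (limma-voom). With the Sox11K91A numbers exchanged the block called 4076 and 2753 genes against control, 19 and 13 of the wider list and 4 and 4 members. Signs changed as follows, all as log2 fold changes. For Sox11, *Cntfr* ranged from -0.087 to 0.43 and *Stat3* from -0.24 to 0.22 with libraries left out, and *Stat3* was 0.20 with log2(TPM + 1). For Sox11K91A, *Cntfr* ranged from -0.0038 to 0.18 and *Stat3* from -0.15 to 0.32, and *Stat3* was -0.10 with the low-*Xist* block. Between Sox11K91A and Sox11 the ranges were -0.35 to 0.18 for *Cntfr*, -0.22 to 0.43 for *Lifr*, -0.10 to 0.083 for *Il6st*, -0.76 to 0.15 for *Osmr*, -0.044 to 0.24 for *Stat3* and -0.20 to 0.92 for *Socs3*. The low-*Xist* block gave 0.089 for *Cntfr*, -0.26 for *Lifr* and -0.093 for *Stat3* there, and log2(TPM + 1) gave 0.13 for *Osmr*. With 2 libraries per group, a fit without 1 library assumes that the remaining one varies like the other groups. A fit without both low-*Xist* libraries assumes that control and Sox11 vary as little as the Sox11K91A pair.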
